A study of Mus musculus with 18 samples.

Results

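Wide KDM2A promoter domains of WT B cells are intervals of at least 3000 bp that lay under KDM2A peaks and contained a transcription start site (TSS) of a protein-coding gene. They were found by merging the peaks of the 3 WT KDM2A lists on chromosomes 1 to 19 wherever peaks overlapped by 1 bp, and by keeping merged intervals with a peak in all 3 lists. The rule kept 1453 of 52239 merged intervals. Of the 8650 intervals with a peak in all 3 lists, 6657 held a coding TSS, and the 5204 under 3000 bp are called narrower promoter intervals here. The WT KDM2A peaks chose the domains, so their number, their width and their KDM2A values in WT or against WT are a description without a test. H3K36me2 was not used by the rule and was tested.

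The study asked whether loss of miR-155 changes where KDM2A binds and where H3K36me2 lies in B cells. Splenic B cells came from WT mice and from mice lacking Mir155 (KO), and were purified by depleting cells with CD43, CD4 or Ter119. Cells of both genotypes were cultured for 2 days at 1% O2 with anti-CD40 at 1 µg/ml, F(ab')2 anti-IgM at 5 µg/ml and IL-4 at 4 ng/ml, so every comparison is within activated, hypoxic cells. Each genotype had 3 libraries with an antibody to KDM2A and 3 with an antibody to H3K36me2, and replicate 1 was male and replicates 2 and 3 were female in every group. The labels do not tie replicates 2 and 3 to separate mice, and a p-value then measures only the spread between these libraries.

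The libraries were unequal in ways that touch the results. The KDM2A lists held 23138 to 29016 autosomal peaks in WT and 15241 to 21483 in KO. The H3K36me2 lists held 85274 to 93535 autosomal peaks in WT but 106528, 37254 and 44982 in KO, so the male KO H3K36me2 library stood apart from both female ones, and mean H3K36me2 coverages of the domains in KO are given with and without it. Read counts did not come with the lists, the depth of each library is unknown, and an unpeaked base is one where no peak was called, not one without signal. In bulk cultures, fewer cells that carry a mark and less of the mark per cell cannot be told apart.

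The B cell label was checked against KDM2A peaks at the TSS of marker genes, which report binding and not expression. Of 8 B cell markers, all had a peak at the TSS in at least 1 WT list, 6 had one in all 3 lists, and Cd79a, Cd79b and Pax5 were among those in wide domains. Of 6 T cell markers, Lck, a Src family kinase, had a peak in all 3 WT lists and lay in a wide domain, Cd3d had a peak in 2 lists, and Cd3e, Cd3g, Cd4 and Cd8a had none. Of 5 myeloid markers, Cd68 had a peak in all 3 lists, in a wide domain shared with the TSS of other genes, Adgre1 had one in 1 list, and Lyz2, Csf1r and Itgam had none. Klf1, an erythroid transcription factor, had a peak at its TSS in 1 WT list and lay in a wide domain, and Hbb-b1 was not found under that symbol in the annotation.

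KDM2A is a Jumonji demethylase that removes methyl groups from mono- and dimethylated lysine 36 of histone H3. Its CXXC zinc finger binds unmethylated CpG dinucleotides, and the protein is therefore known for its place at CpG islands, the CpG-rich stretches that hold most mammalian promoters. H3K36me2 is spread broadly over genes and intergenic chromatin and is low at active CpG island promoters, and MiR-155 is a microRNA induced when B cells are activated.

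Most wide domains held both CpG island and sequence outside islands, which had fewer CpGs on average. For 5 domains whose genes act downstream of the stimuli or define activated B cells, a window of 150 bases is shown from the CpG-richest island position that all 3 WT lists covered, and a second one, called the shoulder, from the position farthest from any island that all 3 WT lists covered. Exons were left out. Capitals mark CpG dinucleotides, and the sequences are from GRCm38, printed 5′ to 3′ on the strand of the named gene.

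The domain of Irf8, a transcription factor of B cell and myeloid development, gave an island window at chr8:120736201-120736350 on the plus strand, centred 82 bp upstream of an Irf8 TSS in an intron of the overlapping gene model Gm20388, and a shoulder at chr8:120765963-120766112, 29477 bp from the nearest island, in an intron of the same model.
Irf8 island: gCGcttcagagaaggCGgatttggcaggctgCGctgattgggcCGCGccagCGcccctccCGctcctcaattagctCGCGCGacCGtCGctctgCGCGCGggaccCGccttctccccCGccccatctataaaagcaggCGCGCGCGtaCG
Irf8 shoulder: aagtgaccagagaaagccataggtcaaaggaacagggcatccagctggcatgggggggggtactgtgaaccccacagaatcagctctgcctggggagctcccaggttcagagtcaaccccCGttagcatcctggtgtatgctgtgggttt

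The island window of Irf8 held 22 CpGs and was covered by all 3 KO KDM2A lists. Its shoulder held 1 CpG and was covered by none of them. Coverage by all 3 WT lists was a condition for choosing either window.

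The domain of Junb and Hook2 gave an island window at chr8:84986079-84986228 and a shoulder at chr8:84982794-84982943, both intergenic and printed on the minus strand, the strand of Junb, a subunit of the AP-1 transcription factor. The shoulder lay 4151 bp upstream of the Junb TSS and 2303 bp from the nearest island. The island window lay 4449 bp upstream of its nearest TSS, that of Hook2, and farther from the Junb TSS than the shoulder.
Junb island: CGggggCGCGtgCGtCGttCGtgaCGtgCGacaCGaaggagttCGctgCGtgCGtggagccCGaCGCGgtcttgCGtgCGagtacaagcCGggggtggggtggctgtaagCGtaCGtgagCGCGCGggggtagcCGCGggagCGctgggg
Junb shoulder: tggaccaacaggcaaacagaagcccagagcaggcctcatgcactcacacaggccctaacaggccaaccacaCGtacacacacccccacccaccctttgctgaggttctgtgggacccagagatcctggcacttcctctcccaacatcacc

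All 3 KO lists covered the Junb island window with its 26 CpGs. Only the KO replicate 3 list covered the shoulder, which had 1 CpG.

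The domain of Stat6, Nab2 and Nemp1 gave an island window at chr10:127666713-127666862, in an intron of Nab2, and a shoulder at chr10:127658462-127658611, in an intron of Stat6, the transcription factor activated by IL-4. Both are on the plus strand, and the shoulder lay 7879 bp from the nearest island.
Stat6 island: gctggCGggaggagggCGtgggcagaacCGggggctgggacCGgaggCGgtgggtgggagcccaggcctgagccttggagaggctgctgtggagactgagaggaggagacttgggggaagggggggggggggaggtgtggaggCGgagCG
Stat6 shoulder: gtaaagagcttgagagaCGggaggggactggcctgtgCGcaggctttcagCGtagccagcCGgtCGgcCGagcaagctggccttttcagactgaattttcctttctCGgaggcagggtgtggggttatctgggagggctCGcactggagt

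These windows held 7 and 8 CpGs, the only pair in which the shoulder was not the poorer one. All 3 KO lists covered the island window and 2 of them the shoulder.

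The domain of Rela, Sipa1 and Pcnx3 gave an intergenic island window at chr19:5637166-5637315, centred 242 bp upstream of the TSS of Rela, a subunit of NF-κB, and a shoulder at chr19:5671777-5671926, in an intron of Pcnx3 and 16231 bp from the nearest island, both on the plus strand. The domain of Stat5a and Stat3 held no island, so it gave only a shoulder at chr11:100889313-100889462, in an intron of Stat3 and printed on the minus strand.
Rela island: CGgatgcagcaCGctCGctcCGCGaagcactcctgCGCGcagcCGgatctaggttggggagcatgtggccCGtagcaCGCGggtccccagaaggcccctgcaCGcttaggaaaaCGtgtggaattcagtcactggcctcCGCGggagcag
Rela shoulder: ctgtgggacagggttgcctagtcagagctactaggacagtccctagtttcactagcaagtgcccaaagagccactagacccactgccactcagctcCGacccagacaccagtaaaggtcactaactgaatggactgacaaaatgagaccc
Stat3 shoulder: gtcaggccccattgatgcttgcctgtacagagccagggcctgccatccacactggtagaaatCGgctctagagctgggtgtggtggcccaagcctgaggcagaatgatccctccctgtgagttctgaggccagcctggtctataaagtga

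The Rela island window held 15 CpGs and was covered by all 3 KO lists, and its shoulder held 1 CpG and was covered by none. The Stat3 window also held 1 CpG and was covered by KO replicate 3 alone. These are 5 chosen examples, and the shares over all domains follow.

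Tiled over all domains in steps of 150 bases, windows inside islands held a mean of 14.6 CpGs, and 81.0% of them held at least 10. Windows of the domains outside islands held a mean of 2.62 CpGs, and 1.09% held at least 10. Over chromosomes 1 to 19 the mean was 1.27 CpGs and 61.1% of windows held at least 1 CpG, compared with 85.2% of the domain windows outside islands. A search for the letters CG finds the dinucleotide on both strands and says nothing of its methylation.

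Domain widths had a median of 4547 bp (quartiles 3567 and 7106 bp) and reached 42230 bp. Of the domains, 555 (38.2%) were under 4000 bp, 195 were at least 10000 bp and 38 at least 20000 bp wide. The width is that of the union of 3 lists, not of single peaks, since the median widest single peak in a domain was 2824 ± 541 bp in WT (SD, n = 3). The domains spanned 9.14 Mb in all, 0.371% of chromosomes 1 to 19. Islands made up 15.0% of their bases, compared with 46.1% in narrower promoter intervals and 0.464% of the genome.

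At least 1 island lay in 1189 of the domains (81.8%), at least 2 in 283 (19.5%), and none in 264 (18.2%). In narrower intervals the shares were 92.4%, 2.02% and 7.57%. The median domain had 2.96 CpGs per 100 bp and a GC content of 54.3%, against 6.51 and 59.8% in narrower intervals. The domains therefore held more islands each but were, per base, poorer in CpG than narrower intervals, as a wide interval around an island must in part be. The 264 domains without an island had a median width of 4362 bp, close to the 4243 bp of those with 1 island. Their widest were the domain of Stat5a and Stat3 (22216 bp), of Apobec3, a cytidine deaminase (17197 bp), and of Cd74, the invariant chain of MHC class II (16824 bp).

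Domains lay among many genes. A median of 8 protein-coding genes, those of the domain included, had their 5′ end in or within 100 kb of a domain, compared with 4 for a narrower interval. Most domains, 1090 (75.02%), held the TSS of a single coding gene, 276 of 2 genes, and 87 of 3 or more, and 291 (20.03%) contained a coding gene over its whole length. Chromosomes 7, 10, 11, 17 and 19 held 729 domains, 50.2% of all, but 29.8% of the narrower intervals. Among promoter intervals with a peak in all 3 lists, the wide share ran from 8.88% on chromosome 16 to 33.3% on chromosomes 17 and 19.

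The 1090 single-gene domains were uneven around their TSS. They reached a median of 1430 bp upstream and 2940 bp downstream, and 831 (76.2%) extended farther downstream. Of narrower intervals with a single gene, 74.4% extended farther downstream. In 110 single-gene domains (10.1%) the interval ran past the end of the gene, as it did in 0.635% of narrower intervals.

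**Figure D1:**
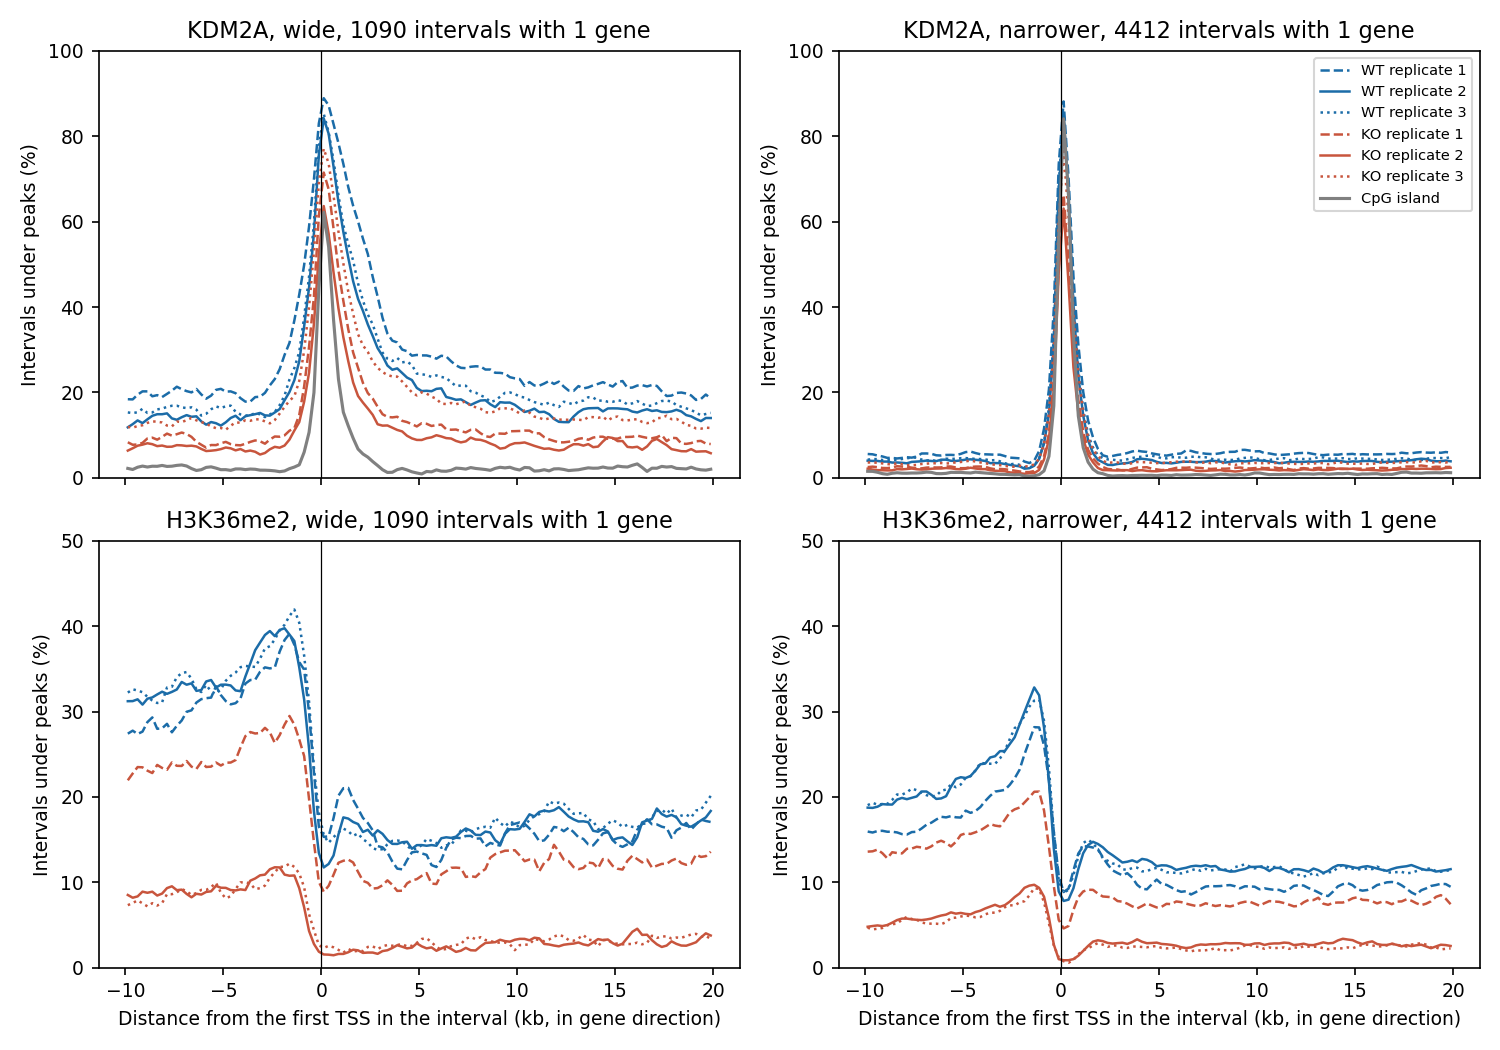
Percent of single-gene intervals that lay under peaks (y axis) against the distance from the first TSS in kb, in the direction of the gene (x axis), for 1090 wide domains and 4412 narrower intervals, with 1 line per library and the CpG island share in grey. KDM2A is highest just downstream of the TSS in every library and stays higher downstream than upstream in wide domains, while H3K36me2 is highest upstream of the TSS and lower in all 3 KO libraries.

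The widest domain spanned 42230 bp at chr8:70752028-70794257 and held the TSS of Rab3a, a small GTPase of vesicle traffic, Mpv17l2, Pik3r2, a regulatory subunit of phosphoinositide 3-kinase, and Mast3. KDM2A peaks covered 89.2%, 75.7% and 76.8% of it in WT and 57.9%, 33.9% and 74.6% in KO. Each KO list covered less than each WT list, KO replicate 3 by a narrow margin. The Rela, Sipa1 and Pcnx3 domain, chr19:5635161-5673486, was 38326 bp wide, and 77.6%, 61.5% and 60.9% of it lay under WT peaks against 50.6%, 27.3% and 49.9% in KO. At 37355 bp, chr7:44833905-44871259 held Il4i1, an amino acid oxidase induced by IL-4, with Tbc1d17, Akt1s1 and Ptov1 among its genes, and WT lists covered 86.8%, 90.5% and 86.8% of the domain and KO lists 66.4%, 54.8% and 74.9%. In both of these domains the genotypes did not overlap.

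The fourth widest, 36676 bp at chr17:34179195-34215870, held Psmb9 and Psmb8, subunits of the immunoproteasome, and Tap1 and Tap2, the transporter that loads peptides for MHC class I. WT lists covered 85.5%, 79.7% and 77.2% of it and KO lists 50.7%, 40.9% and 68.2%. Next came Zbtb7a, a zinc finger repressor, with Pias4 at chr10:81133987-81169914, 35928 bp wide, covered by 93.1%, 68.7% and 75.02% in WT and 44.0%, 45.2% and 71.7% in KO. Here KO replicate 3 exceeded WT replicate 2, so the genotypes overlapped. The Irf8 domain, chr8:120734026-120767938, was 33913 bp wide, with 96.7%, 68.6% and 66.3% in WT and 44.7%, 50.4% and 60.6% in KO. The last of the 8 widest lay in the MHC region, at chr17:33924387-33956452 with Tapbp, the tapasin of peptide loading, and at chr17:35240650-35271224 with Ddx39b and the class I gene H2-D1. They were 32066 and 30575 bp wide, with a KO mean coverage of 40.4% ± 9.51 and 66.7% ± 12.4 against 77.2% ± 10.1 and 88.8% ± 7.09 in WT (SD, n = 3 each).

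**Figure D2:**
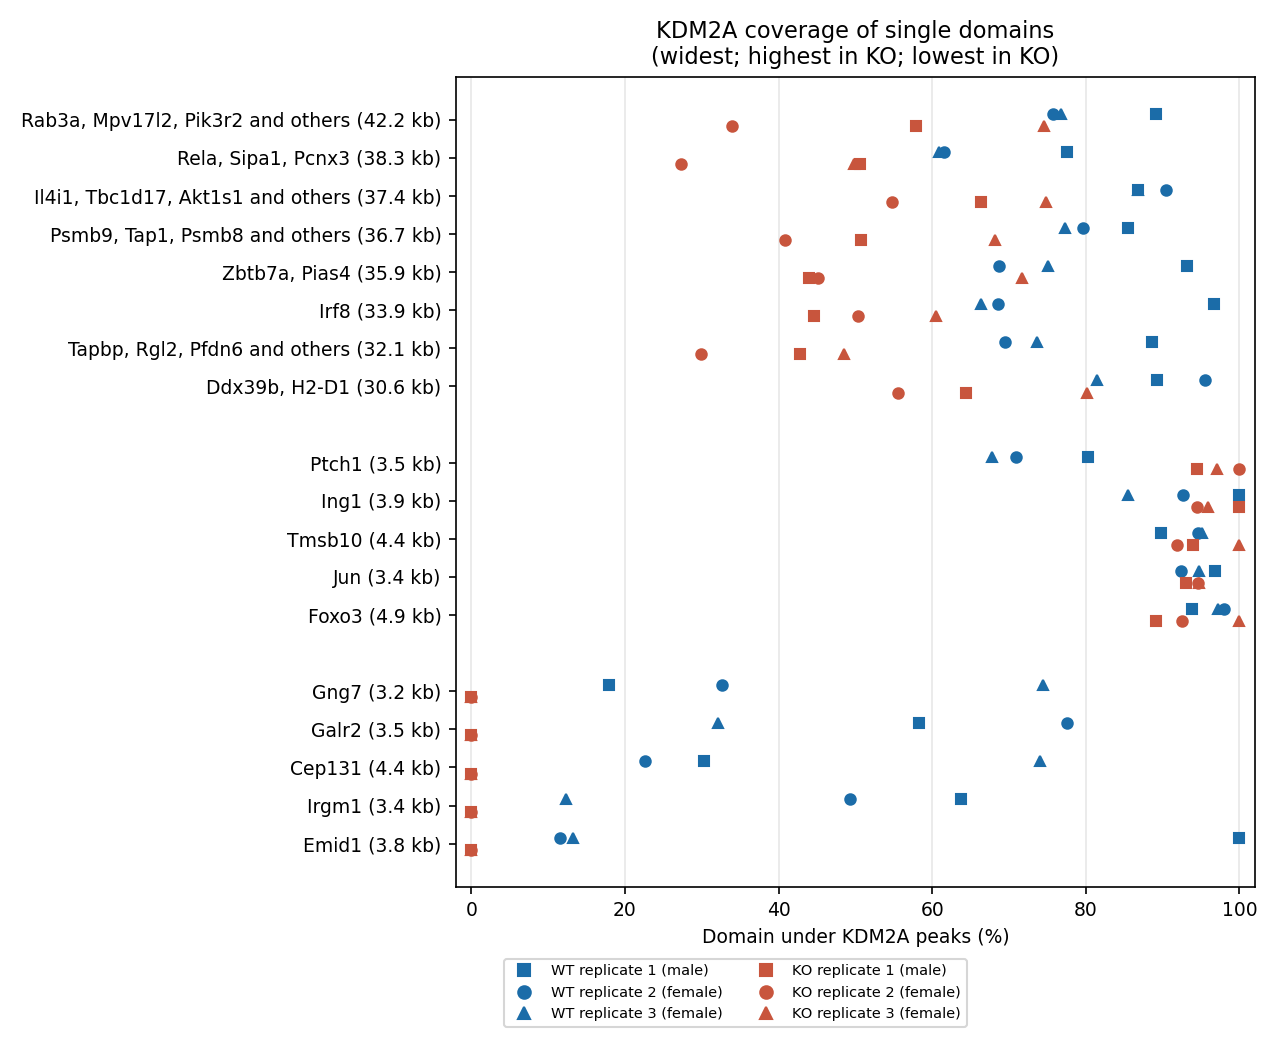
Percent of a domain under KDM2A peaks (x axis) in each of the 6 libraries, for the 8 widest domains, the 5 with the highest and 5 with the lowest KO coverage, with widths in kb. In the widest domains the KO libraries sit mostly to the left of the WT libraries, in a contrast that the rule tilts towards WT. At Ptch1 all 3 KO libraries sit to the right.

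The genes in wide domains were then counted over gene lists, with 1763 of 20807 autosomal coding genes (8.47%) lying in a wide domain as the background. Lists are described by these shares alone. Apart from the antigen presentation genes described further on, the highest share was that of signal-induced early genes, immediate targets of receptor signalling, with 24 of 28 genes (85.7%) in a wide domain and the other 4 in narrower intervals. Zfp36, an mRNA decay factor, shared its domain of 17530 bp with Plekhg2, and KDM2A covered 89.1% ± 7.04 of it in WT and 75.7% ± 7.65 in KO (± SD of 3 libraries, with WT before KO, as for all domains in this and the following paragraphs). The domain of Junb and Hook2 was 17377 bp wide and had 86.4% ± 6.14 and 65.4% ± 6.78, that of Ier2 12470 bp with 80.8% ± 8.45 and 55.1% ± 3.55, and that of Jund 11722 bp with 88.0% ± 3.36 and 52.8% ± 13.4. Jun itself, the narrowest of the list's domains, was 3441 bp wide and had a coverage of 94.7% ± 2.21 and 94.1% ± 0.937.

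Of genes of IL-4 signalling, the cytokine in the culture, 6 of 9 lay in wide domains (Stat6, Jak3, Socs1, Il4ra, Cish and Socs3). The Stat6 domain of 18319 bp had a coverage of 75.9% ± 8.38 in WT and 41.8% ± 14.8 in KO. For Jak3, the kinase of the common gamma chain, it was 51.9% ± 26.8 and 22.4% ± 10.5, and for Il4ra, the receptor, 66.8% ± 42.4 and 37.2% ± 33.9, so the libraries of 1 genotype differed widely at the receptor gene. Of genes of CD40, B cell receptor and NF-κB signalling, 15 of 31 (48.4%) were included. Beside Rela, these held Nfkb2, with a domain of 21961 bp covered by 91.0% ± 5.90 in WT and 81.7% ± 8.91 in KO, and the inhibitors Nfkbie (25230 bp, 91.4% ± 2.72 and 79.99% ± 5.47) and Nfkbia (14054 bp, 78.8% ± 12.7 and 53.1% ± 14.8). B cell transcription factors had the same share, 15 of 31, led by Irf8, Spib (23747 bp, 87.4% ± 7.14 and 59.8% ± 12.4), Tcf3 (16345 bp, 64.5% ± 14.2 and 34.0% ± 25.1) and Irf4 (9554 bp, 85.2% ± 9.55 and 34.0% ± 22.0).

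Antigen presentation genes were counted after their values had been seen. In wide domains lay 9 of 10 MHC class II presentation genes and 7 of 10 genes of MHC class I and peptide loading. The domain of H2-Ab1 was 18065 bp wide (79.5% ± 5.85 and 52.2% ± 11.7), that of H2-Eb1 14893 bp (86.3% ± 8.20 and 64.7% ± 12.2), that of Cd74 16824 bp (92.9% ± 3.76 and 78.7% ± 8.84), and H2-DMa shared 18048 bp with the chromatin reader Brd2 (86.3% ± 10.8 and 62.9% ± 15.4). The span of H2 genes, chr17:33996017-37483552, held 51 wide domains that made up 15.0% of its 3.49 Mb. H2 genes have near-identical copies, and peaks there are uncertain where reads could map to more than 1 copy. The class I gene H2-K1 had the highest mean peak fold of any domain in WT, 5.47, 5.32 and 6.97 over background, with 4.43, 4.93 and 4.78 in KO. The domains of Tmsb10, which encodes the actin-binding thymosin beta 10, and Actb came next, with WT means of 5.60 and 5.24.

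Lists of metabolic, hypoxia and ribosomal genes ranged more widely. Of glycolytic genes, 10 of 21 (47.6%) lay in wide domains, among them Aldoa (26728 bp, 93.8% ± 5.25 and 77.5% ± 13.8), Gapdh (18184 bp, 83.8% ± 7.37 and 55.2% ± 14.1) and Tpi1 (12785 bp, 79.8% ± 0.0471 and 58.5% ± 17.7). Of 22 hypoxia response genes, 8 were included, with Adm, Ddit4 and Vegfa the widest, and Ddit4, an inhibitor of mTORC1, had 89.3% ± 13.6 in WT and 73.2% ± 4.99 in KO. Of 72 cytosolic ribosomal protein genes, 28 (38.9%) were in wide domains, and the domain of Rps16 had 64.5% ± 24.3 and 23.9% ± 16.6. Of 177 genes of the mitochondrial respiratory chain and ribosome, 20 (11.3%) were, close to the 8.47% of all coding genes. Their widest domains were those of Atp5d (25447 bp, 84.9% ± 5.998 and 73.5% ± 19.3), Mrpl49 (19551 bp, 92.2% ± 6.87 and 64.4% ± 16.5) and Mrps34 (16724 bp, 72.3% ± 26.8 and 43.7% ± 15.1), each shared with TSS of neighbouring genes.

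Among regulators of growth and death, wide domains held 6 of 14 Myc and Max network genes (Mxd3, Mnt, Mxi1, Mlx, Mlxip and Mxd4, which did not include Myc), 9 of 28 cell cycle regulators and 7 of 18 apoptosis genes. The Mcl1 domain was 12594 bp wide and its coverage was 64.7% ± 18.9 in WT and 64.4% ± 24.2 in KO, and the domain of Bbc3, which encodes the BH3-only protein PUMA, had 86.5% ± 11.7 and 89.2% ± 12.3. The cyclin gene Ccnd2, with a domain of 11470 bp, had 54.4% ± 25.5 and 28.6% ± 8.69, and the kinase inhibitor Cdkn1a, with 11189 bp, had 55.1% ± 18.7 and 31.5% ± 9.35.

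Of Polycomb and CXXC genes, 12 of 35 lay in wide domains, including Ring1 (84.4% ± 5.51 and 84.5% ± 12.6) and Cbx8 (56.9% ± 13.8 and 30.8% ± 7.72). Other chromatin regulators had 11 of 37, led by Dot1l, the H3K79 methyltransferase, Kdm6b, an H3K27 demethylase, and Chd4 (20527 bp, 84.6% ± 10.2 and 64.8% ± 17.6). Of 27 genes that write, erase or read H3K36 methylation, 5 lay in wide domains (Phf1, Kdm2b, Phf19, Kdm4b and Nsd1) and 16 in narrower intervals. The domain of Kdm2b, the paralogue of Kdm2a, was 8108 bp wide, with 75.9% ± 24.3 in WT and 59.4% ± 14.4 in KO. Replication-dependent histones had 12 of 67 and Zfp-named zinc finger genes 22 of 385 (5.71%). Of 21 genes of class switching and hypermutation, 1 was included (Supt5), and no gene of 71 developmental transcription factors or of 39 Hox genes was.

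**Figure D3:**
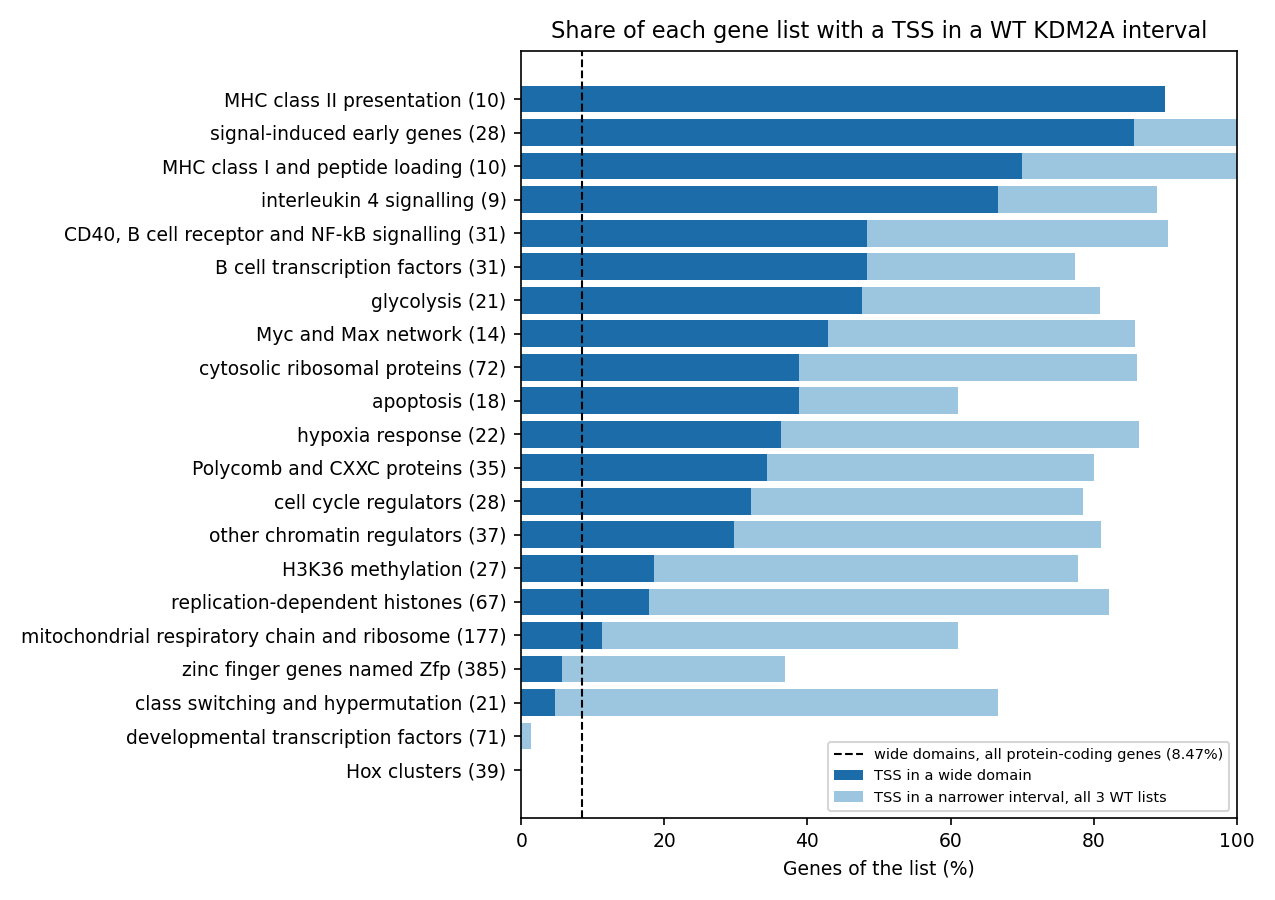
Percent of the genes of each list (x axis, number of genes in brackets) with a TSS in a wide domain or in a narrower interval with a peak in all 3 WT lists, and a dashed line at 8.47%, the share of all coding genes in wide domains. The share in wide domains runs from 0% for Hox clusters to 85.7% for signal-induced early genes and 9 of 10 genes for MHC class II presentation, which was added after its values were seen.

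In the KO lists most domains still carried KDM2A peaks, and on average these covered less of a domain. A peak lay in 92.8%, 90.1% and 96.6% of the 1453 domains in KO, and 1240 domains (85.3%) had one in all 3 KO lists, 144 in 2, 53 in 1 and 16 in none. Of narrower intervals, 80.9%, 79.6% and 89.3% held a KO peak, 64.2% in all 3 lists and 2.98% in none. A wider interval offers more bases for a peak to touch, so these shares are not alike in kind. WT lists covered a mean of 76.0%, 58.3% and 61.5% of a domain and KO lists 38.2%, 31.6% and 48.3%, or 65.3% ± 9.44 and 39.4% ± 8.40 (SD, n = 3). Every KO list was below every WT list, in a contrast that the rule itself tilts towards WT. Lower KO coverage was not confined to the domains. Genome-wide, KDM2A peaks covered 1.223%, 0.8466% and 0.9641% of bases in the WT lists and 0.5435%, 0.476% and 0.7858% in the KO lists. Every KO list was thus below every WT list there as well. Whether KO coverage of the domains fell by more than this genome-wide share was not tested. At least 50% of the bases were covered in 86.9%, 62.0% and 67.8% of domains in WT, and in 28.8%, 19.6% and 46.0% in KO. The median widest single peak measured 2824 ± 541 bp in the WT lists but 1607 ± 393 bp in the KO lists, while the median of the highest peak fold in a domain was 3.15 ± 0.140 and 3.06 ± 0.0440.

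To lessen what the choice of domains did to these values, the rule was run on 2 WT lists at a time and the WT list left out was scored beside KO. The domains were still chosen on WT lists alone, so a tilt towards WT could remain. Domains chosen on KO lists were not scored in this way. Domains chosen without WT replicate 1, 979 of them, had a coverage of 69.6% in that list and 46.8%, 37.9% and 57.4% in the KO lists. Chosen without replicate 2 (1265 domains), the values were 53.0% in that list and 40.7%, 33.6% and 51.5% in KO, and without replicate 3 (1226 domains) 55.7% and 41.1%, 33.6% and 51.2%. Each KO list was below the left-out WT list in all 3 cases, with a KO mean over WT of 0.681, 0.791 and 0.753. Narrower promoter intervals chosen in the same way had ratios of 0.770, 0.852 and 0.836. The gap between left-out WT and KO replicate 3 was small in the cases of replicates 2 and 3, and smaller than the spread among the KO lists.

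**Figure D4:**
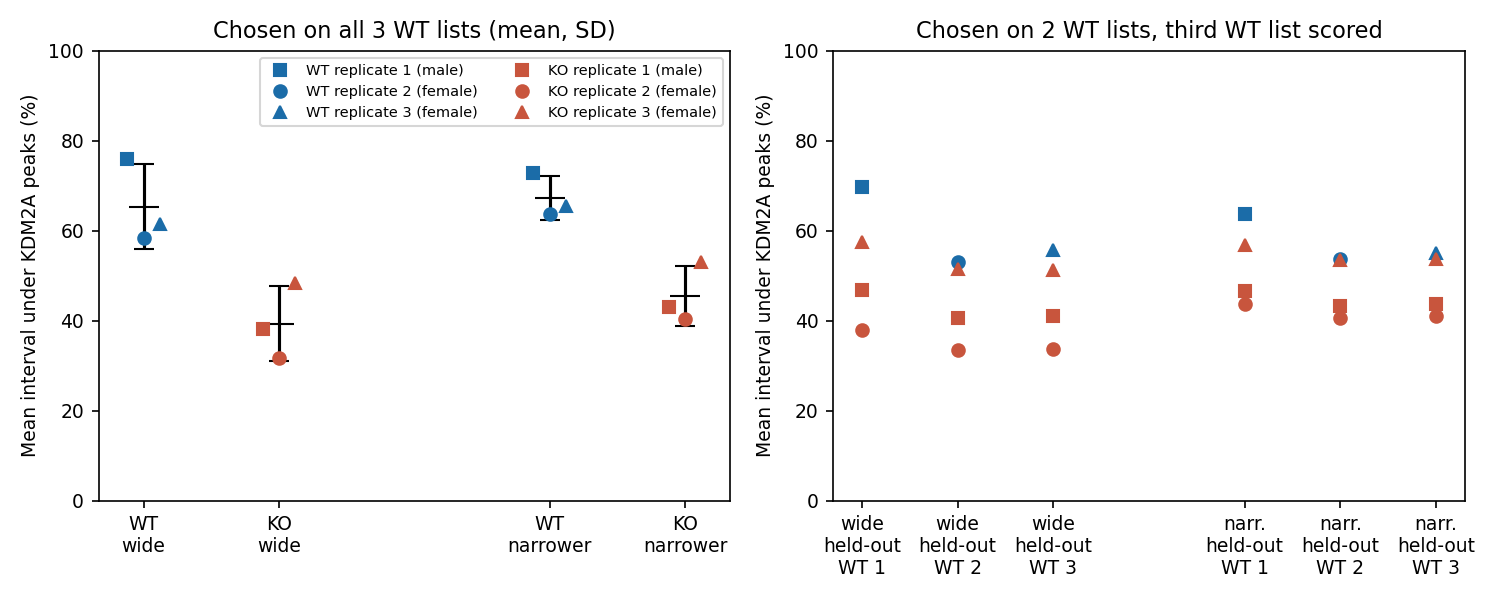
Mean percent of an interval under KDM2A peaks (y axis) in each library, with mean and SD, for intervals chosen on all 3 WT lists (left) and for intervals chosen on 2 WT lists with the WT list left out scored beside the 3 KO lists (right). The WT list left out is above all 3 KO lists each time, but close to KO replicate 3 for WT replicates 2 and 3.

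Within the domains, KDM2A peaks covered the islands more fully than the bases around them in every library. The gap was wider in KO, but the rule put every domain base under at least 1 WT peak. WT coverage outside islands was held up in this way and KO coverage was not, so the gaps are a description. Island bases were covered by 92.8%, 88.9% and 88.0% in WT and 80.6%, 72.9% and 87.1% in KO. Bases outside islands were covered by 76.3%, 56.3% and 61.4% in WT and 34.6%, 27.3% and 46.2% in KO. Narrower intervals had the same pattern. Their island bases were covered by 84.9%, 81.8% and 81.0% in WT and 65.8%, 61.0% and 74.8% in KO. Outside islands the values were 62.0%, 44.3% and 49.0% in WT and 21.6%, 19.4% and 30.8% in KO. The 264 domains without an island had a mean coverage of 25.7%, 18.98% and 35.4% in KO, those with 1 island 38.95%, 32.4% and 48.5%, and those with 2 or more 47.5%, 40.9% and 59.6%. The corresponding WT values, which the rule used, went from 70.6%, 51.7% and 56.6% without an island to 79.8%, 65.97% and 69.9% with 2 or more.

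How many WT lists shared a base went with its KO coverage in the same way. Bases under peaks in all 3 WT lists made up 38.0% of the domains, and 70.2%, 60.5% and 80.3% of them lay under KO peaks. Bases under a peak in 1 WT list made up 32.7%, of which 14.3%, 10.7% and 24.2% lay under KO peaks. Islands took up 29.7% of the former and 2.61% of the latter bases, so island position and agreement among WT lists moved together and were not separated.

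The rule applied to the 3 KO lists instead gave 777 wide domains, 14.8% of KO promoter intervals with a peak in all 3 lists, compared with 21.8% in WT. Their median width was 4311 bp and the widest was 28219 bp. Of the KO domains, 638 (82.1%) overlapped a WT wide domain, 119 overlapped only a narrower WT interval, and 596 (41.0%) of the WT domains overlapped a KO wide domain. With the 15241 strongest autosomal peaks taken from each list, the number in the shortest list, the coverage of the domains chosen on them averaged 65.96% in WT and 41.8% in KO, and the part that depth plays in the difference was not tested.

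Single domains departed from the general pattern in both directions. Ptch1, the Hedgehog receptor, had a domain of 3450 bp that was 87.0% island, with 80.3%, 70.96% and 67.8% covered in WT and 94.5%, 100% and 97.1% in KO, so KO was the higher genotype in every library. Ing1, a chromatin reader, had 100%, 92.7% and 85.5% in WT and 100%, 94.5% and 95.9% in KO, and its domain was 90.6% island. The other domains with the highest KO coverage were those of Tmsb10, Jun and Foxo3, with KO means of 95.3% ± 4.20, 94.1% ± 0.937 and 93.9% ± 5.55. At the other end, 16 domains had no KO peak, and the 5 named here are those that come first when chromosome and start are sorted as text, an arbitrary order. The domains of Gng7, a G protein subunit, Galr2, a galanin receptor, Cep131, Irgm1, an immunity-related GTPase, and Emid1 were covered in WT alone. WT coverage was uneven between libraries, at 17.9%, 32.6% and 74.5% for Gng7, 58.3%, 77.6% and 32.1% for Galr2 and 63.7%, 49.3% and 12.4% for Irgm1. It was 30.3%, 22.6% and 73.98% for Cep131 and 100%, 11.5% and 13.3% for Emid1. Islands made up 34.7% of the Galr2 domain, and the other 4 held none.

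At the width threshold, the domains just inside were those of Spred2 (3000 bp), Naaladl1 (3001 bp) and Naglu (3003 bp), and the intervals just outside were those of Fes and Smad3 (2999 bp each) and Bptf (2997 bp). KO mean coverage was 52.6%, 0% and 33.6% for the former and 19.1%, 46.3% and 24.0% for the latter. Across width classes, KO coverage was 36.1%, 31.1% and 45.9% in domains under 4000 bp and 56.2%, 48.5% and 70.5% in the 38 domains of at least 20000 bp.

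The question for H3K36me2 was whether the mark differed between genotypes at the domains. H3K36me2 peaks covered 19.5%, 17.9% and 19.5% of a domain on average in WT and 13.3%, 2.86% and 3.34% in KO, or 18.96% ± 0.953 and 6.50% ± 5.90 (SD, n = 3), a difference of -12.5 percentage points. All 3 KO libraries were below all 3 WT libraries, with the male KO library nearer to WT than to the female KO libraries. Permuting the genotypes of the 6 libraries in a two-sided exact test gave p = 0.1, the smallest that 3 against 3 allow, and an adjusted p of 0.11 over the 11 H3K36me2 measures compared. The difference was -8.19 points when each list was cut to the same number of strongest peaks, and -3.95 points with peaks at a −log10 q of at least 2 only. Without the male KO library the KO mean was 3.10%.

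A peak of H3K36me2 touched 68.8%, 63.5% and 64.8% of the domains in WT and 60.7%, 19.6% and 24.9% in KO. The 5 kb on each side of a domain were covered by 21.9%, 23.2% and 23.5% in WT and 16.9%, 5.72% and 5.93% in KO, or 22.9% ± 0.880 and 9.53% ± 6.42, a difference of -13.3 points (exact permutation p = 0.1, n = 3 per genotype). The flank difference was -8.86 points with equal peak numbers, and -4.81 points with peaks at a −log10 q of at least 2 (exact permutation p = 0.2), where the genotypes overlapped. Without the male KO library the KO mean was 5.82% in these flanks and 22.2% for the share of domains touched. H3K36me2 was thus lower inside a domain than beside it in every library, and was lower in KO in both places. Island bases of the domains had 8.21%, 5.16% and 6.98% in WT and 3.89%, 0.357% and 0.288% in KO. Bases outside islands had 20.7%, 19.6% and 21.04% in WT and 14.7%, 3.25% and 3.89% in KO. Without the male KO library the KO means were 0.322% over island bases and 3.57% outside, in place of 1.51% and 7.29%. Both measures separated the genotypes (exact permutation p = 0.1 each, n = 3 per genotype).

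**Figure D5:**
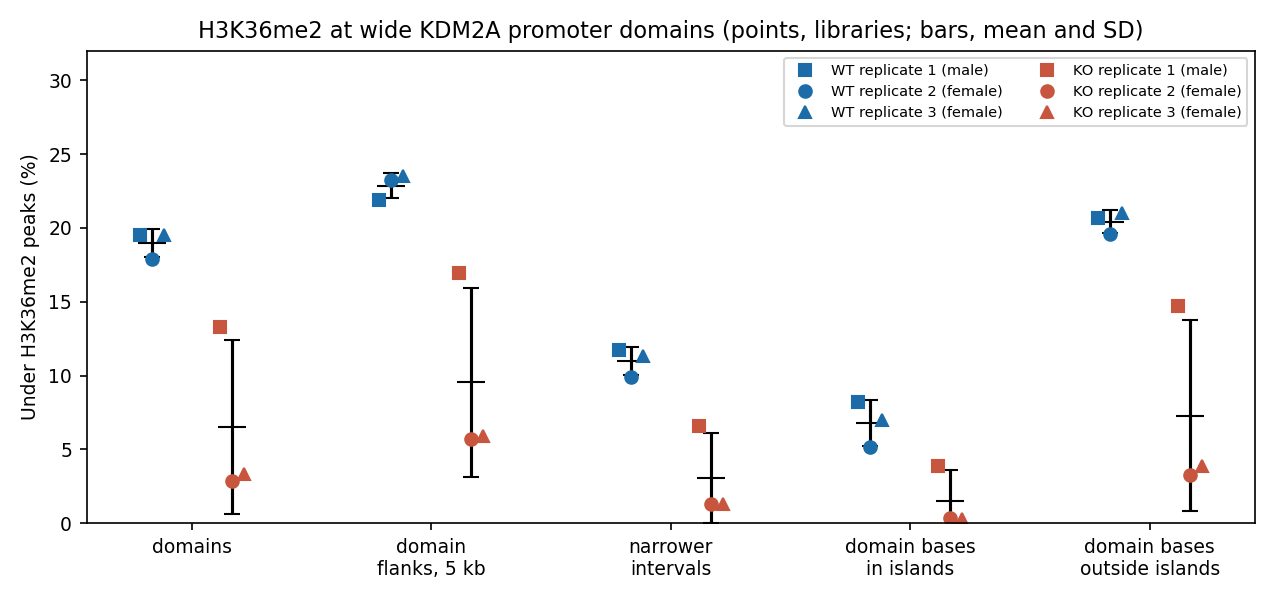
Percent of bases under H3K36me2 peaks (y axis) in each library, with the mean and SD of 3 libraries per genotype, for domains, their 5 kb flanks, narrower intervals, and domain bases in and outside CpG islands. All KO libraries sit below all WT libraries in each measure, and the male KO library (square) sits above both female ones.

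Along single-gene domains, H3K36me2 in WT was highest in the bins centred 1375 to 1875 bp upstream of the TSS, where 39.1% to 41.9% of the domains were covered. In the first 1 kb downstream of the TSS, where KDM2A was highest, it covered 13.2% to 17.1%. Between 1 and 3 kb downstream it covered 15.13% to 18.15%. It was also low farther downstream, at 12.8% to 14.6% between 3 and 6 kb and 15.01% to 16.03% between 6 and 10 kb. Over these last 2 stretches KDM2A covered 18.0% to 30.5% of the domains in WT. The KO libraries had the same shape at a lower level, with maxima of 29.5%, 11.8% and 12.2% upstream of the TSS and 10.4%, 1.55% and 2.35% in the first 1 kb after it. Bases under a KDM2A peak of the same-numbered library also carried less H3K36me2 than the other bases of the domains. In WT these were 17.9%, 15.4% and 17.2% against 22.2%, 20.6% and 22.2%, and in KO 9.97%, 1.498% and 2.28% against 15.3%, 3.50% and 4.53%. Same-numbered libraries of the 2 antibodies are not stated to share a culture.

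Compared with narrower promoter intervals, the domains carried more H3K36me2 in every library, and the genotypes differed by more points but by a smaller proportion. Narrower intervals had 11.7%, 9.87% and 11.4% in WT and 6.56%, 1.30% and 1.31% in KO. The classes differed in island share, 15.0% of domain bases against 46.1% of narrower ones. Pooled bases outside islands were closer, with 20.7%, 19.6% and 21.04% in domains and 19.15%, 16.35% and 18.73% in narrower intervals in WT. In KO they had 14.7%, 3.25% and 3.89% against 11.75%, 2.64% and 2.67%. The part of island share in the excess of the domains was not tested. The excess of the domains was 7.98 ± 0.186 points in WT and 3.44 ± 2.87 in KO, a difference of -4.54 points (n = 3 each, exact permutation p = 0.1). Without the male KO library the KO excess was 1.79 points. The difference of the excess was -2.53 points with peaks at a −log10 q of at least 2 only. As shares of intervals touched it was -11.8 points, and on coverage divided by each library's genome-wide share -0.206 (exact permutation p = 0.4 each), so neither separated the genotypes. The ratio of domains to narrower intervals went the other way, 1.73 ± 0.0727 in WT and 2.26 ± 0.268 in KO (n = 3 each, exact permutation p = 0.1). As a multiple of the genome-wide H3K36me2 peak share of each library, domain coverage had values of 4.23, 3.04 and 3.37 in WT and 3.32, 1.63 and 2.09 in KO (n = 3 each, exact permutation p = 0.2), so the genotypes overlapped on this scale. Narrower intervals had 2.54, 1.68 and 1.96 in WT and 1.64, 0.745 and 0.821 in KO on the same scale, without overlap (n = 3 each, exact permutation p = 0.1).

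Per interval, H3K36me2 coverage within 5 kb of each promoter interval was tested with limma over 10157 intervals with H3K36me2 in at least 1 library. Of the 1453 domains, 1397 entered the test and 56 had no H3K36me2 peak in any library. At an adjusted p under 0.05 limma called none of the 1397 domains lower in KO and none higher, with a background of 0.0985% of all tested intervals lower. The smallest adjusted p of a domain was 0.0564. At an unadjusted p under 0.05, 422 domains (30.2%) were lower, against 24.2% of all tested intervals, and 0 were higher, against 0.0197%. In 545 domains (39.0%) every KO library was below every WT library, compared with a background of 27.1%. In none was every KO library above every WT library, with a background of 0.108%. The median difference was -11.8 points over the domains and -7.91 points over all tested intervals.

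The number of calls depended on the male KO library. Without it, limma called 227 of 1381 domains lower in KO, beside 994 of all 9905 intervals tested. With both male libraries left out, no domain was called, and at an unadjusted p under 0.05 limma had 682 of 1355 domains lower and 0 higher, beside 3542 of all 9568 intervals lower. With the percentile rank of coverage within each library, which removes a difference shared by all intervals, no domain was called. At an unadjusted p under 0.05, 40 of 1397 domains were then lower and 34 higher, beside 254 lower and 562 higher of all 10157 intervals.

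The domains with the most H3K36me2 in WT were mostly poor in islands. Those of Rhbdf2, an inactive rhomboid protein, and Tnip1, an inhibitor of NF-κB signalling, lay under H3K36me2 peaks over 100% of their length in all 3 WT libraries. In KO, 56.2%, 2.79% and 40.9% of the Rhbdf2 domain and 98.4%, 25.4% and 53.8% of the Tnip1 domain remained covered. The other domains of this kind were those of Sit1, a signalling adaptor of lymphocytes, Dennd1c and Gm12216. By contrast the domains of Ptch1 and Ing1, which were mostly island, had no H3K36me2 peak inside in any library.

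The 5 largest decreases among domains with separate genotypes were at Aif1, Sema4b, Gm12216, Ly6e and Ralgds. At Aif1, an actin-binding protein of immune cells, the domain at chr17:35170721-35175845 and its 5 kb neighbourhood were covered by 76.0%, 96.0% and 85.1% in WT and 44.4%, 23.9% and 16.7% in KO. The limma difference was -57.4 points (SE 15.5, adjusted p = 0.0734). For Sema4b, a semaphorin, the values at chr7:80196022-80201258 were 87.5%, 69.2% and 60.5% in WT and 22.7%, 20.8% and 11.3% in KO (limma difference -54.1 points, SE 12.99, adjusted p = 0.0573). For Ly6e, a surface protein at chr15:74953108-74964089, they were 59.6%, 57.9% and 84.8% in WT and 27.6%, 8.01% and 10.7% in KO (limma difference -52.0 points, SE 12.5, adjusted p = 0.0573). At these domains the genotypes did not overlap, and each missed the adjusted threshold of 0.05. Gm12216 and Ralgds had differences of -52.6 and -50.9 points with limma adjusted p of 0.112 and 0.0758. The call changed with the setting at all 5 domains, whose limma adjusted p ran from 0.0102 to 0.014 without the male KO library and from 0.0177 to 0.0442 over intervals covered in at least 3 libraries. It ran from 0.166 to 0.496 when any other single library was left out, was 0.08 without both male libraries, and ran from 0.479 to 0.79 on percentile ranks.

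Among the domains of genes named above, the NF-κB inhibitor Nfkbia had 39.98%, 52.5% and 52.0% in WT and 27.0%, 15.3% and 13.6% in KO in the same neighbourhood (limma adjusted p = 0.128). Irf8 had 37.0%, 35.8% and 46.9% in WT and 35.5%, 0.683% and 13.8% in KO, with the male KO library just below WT (adjusted p = 0.188 by limma). Junb and Hook2 had 10.9%, 24.0% and 21.5% in WT and 20.98%, 2.77% and 0.299% in KO, so the genotypes overlapped. The Rela domain had 11.3%, 8.37% and 15.8% in WT and 9.32%, 4.01% and 4.01% in KO, and that of Cd74 12.2%, 15.4% and 10.8% in WT and 8.73%, 6.09% and 11.1% in KO. The genotypes overlapped at both, and H3K36me2 was sparse there in WT as well.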

How the data were processed

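ChIP-seq peak lists of KDM2A and H3K36me2 from 3 WT and 3 KO libraries each were used, 12 lists of 18 samples, without analysis of the 6 inputs on their own. Using the nf-core/chipseq pipeline, the authors aligned reads with BWA to GRCm38 and called broad peaks per library with MACS2, without pooling, and the submitters' processing notes also name bedtools. The version of MACS2 and the read filters, which the pipeline sets, are not listed in the sources used here. The deposited fold of a peak is a ratio over the local background that was not scaled across libraries. Each deposited list further holds −log10 of a p-value, −log10 of a q-value, used only to rank or filter peaks, and a score that was not used. Read counts were not given, so the depth is unknown and no counting interval is given.

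Peaks were merged by 1 bp of overlap, and TSS of any transcript of a protein-coding gene were taken from GENCODE M21. CpG islands were scored on GRCm38.p6 (17 for each CpG, -1 for each other base, at least 200 bp, GC fraction of at least 0.5, observed over expected CpG of at least 0.6), which gave 16424 islands with a mean of 677 bp. Coverage is the percent of an interval's bases under the peaks of 1 list, averaged over intervals with equal weight. Bases in and outside islands were pooled over intervals. H3K36me2 measures were compared between genotypes by exact permutation of the libraries (two-sided) with Benjamini-Hochberg adjustment over 11 measures, and per promoter interval with peaks in at least 1 WT KDM2A list, extended by 5 kb, with limma 3.58.1 in R 4.3.3 with adjustment over all 10157 intervals at a threshold of 0.05. Tested on simulated data made for this H3K36me2 comparison over 10157 intervals with 200 changed ones, limma recovered 20.5% of differences of 20 points and 100% of 40 points. The simulation gave every interval the same median spread and independent noise. In the real data, domains with differences of -50.9 to -57.4 points missed the threshold, so these rates do not carry over to such domains. All other steps ran in Python 3.11.15 (numpy 2.4.6; pandas 2.3.3; scipy 1.17.1).

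Domains named in the text were the 8 widest, the 3 on each side of the width minimum, the 5 lowest and 5 highest in KO KDM2A coverage, the 5 highest in WT H3K36me2, the 5 largest decreases and increases in H3K36me2 with separate genotypes (no increase met this), and the 2 to 4 widest of each gene list. Domains without islands, domains of highest fold and the antigen presentation lists were added after their values were seen, and the printed windows were taken from 5 domains chosen in the same way. The members and gene lists were chosen with earlier results of these data known. Alternatives covered the width, the strength and number of peaks, the scaling, the replicate block and leaving out each library. A few genes that these rules name are not reported here.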

Additional observations from a re-analysis of the deposited data

Results flagged for a closer look

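A further 457 intervals at least 3000 bp wide had a KDM2A peak in all 3 WT lists but no TSS of a protein-coding gene, and lie outside the comparisons above. Their median width was 4013 bp, and 274 of them overlapped the body of a coding gene. The widest, at chr19:5793361-5811851 (18491 bp), held the TSS of Malat1, an abundant nuclear long noncoding RNA, with 89.7%, 68.4% and 57.9% of it under WT peaks and 48.3%, 56.4% and 71.4% under KO peaks, so the genotypes overlapped. The next, 14840 bp, held the pseudogene H2-K2. WT lists covered a mean of 66.8%, 48.7% and 53.4% of the 457 intervals and KO lists 21.2%, 17.7% and 32.6%.

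At 13 of 89 named wide domains, H3K36me2 within 5 kb was higher in the male KO than in the male WT library, while both female KO libraries were below both female WT libraries. The difference between male and female libraries was not tested, and each genotype had 1 male library. The male difference was 13.1 percentage points at Irgm1, 10.1 at Junb and Hook2, 5.12 at Vegfa, 4.49 at Hist2h3c2 and Hist2h2aa2, 4.43 at Gng7, 3.27 at 2410015M20Rik and Rpl36, 2.83 at Socs1, 2.68 at Kdm4b, 1.67 at Gapdh and Ncapd2, 1.59 at Jund and Iqcn, 1.08 at Nfkb2 and Psd, 1.01 at Phf19 and 0.92 at Mnt. Over all 1453 domains this pattern held at 305, the opposite one at 2, and 765 were lower in KO in both sexes. The male KO list held 106528 autosomal H3K36me2 peaks against 37254 and 44982 in the female KO lists, and its part in the pattern was not tested.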

How the results depend on the processing

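Exact tests of 3 against 3 libraries cannot go below 0.1 and could not change their call under any alternative, so for these only the size and direction are compared. The number of domains was 2738 at a width of at least 2000 bp, 898 at 4000 bp and 595 when a single peak of 3000 bp was required in at least 2 WT lists, and 979 to 1265 with the rule on 2 WT lists. KO coverage ranged from 34.9% to 43.2% without 1 KO list, and as the share of domains with a peak it was 93.2%. Several H3K36me2 alternatives were chosen after seeing the data, among them those without both male libraries and all those of the domains against narrower intervals.

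The H3K36me2 difference without 1 library ranged from -15.9 to -10.6 points in domains, from -17.1 to -11.4 in flanks and from -6.19 to -3.60 for domains minus narrower intervals. The ratio of domains to narrower intervals reversed the direction, at 0.526 higher in KO. With an equal number of 37254 strongest peaks per list the domain difference was -8.19 points, and with a −log10 q of at least 2 it was -3.95 points, with flank differences of -8.86 and -4.81 points. Over the genome share the flank difference was -0.515 (exact permutation p = 0.3). Of all promoter intervals, limma called 10 lower in KO and none higher, 0 on percentile ranks, 332 of 8167 when covered in at least 3 libraries (51 of 1261 domains, near the share of all intervals), and 0 to 994 without 1 library, with 994 only without KO replicate 1 and 0 without both male libraries. The cause of these shifts was not tested.

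Same-numbered WT and KO H3K36me2 libraries were of the same sex, and their deviations from the genotype mean correlated at 0.00861, 0.0312 and -0.0191. These values gave no sign of pairing but cannot show whether the libraries were paired by experiment. With the replicate block, the differences were -12.5, -13.3 and -4.54 points for domains, flanks and domains minus narrower intervals (exact sign-flip p = 0.25 each, the smallest that 3 pairs allow). limma with the block called 83 of 10157 intervals and 11 of 1397 domains, near the same share, among them those of Ly6e and Sema4b (adjusted p of 0.0346 and 0.0414 by limma).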
